A study of Mus musculus with 4 samples.

Results

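The p53 pathway was examined in regenerating mouse liver through 10 genes: the regulators Trp53 and Mdm2, the arrest targets Cdkn1a, Ccng1, Btg2 and Plk2, the apoptosis targets Bax, Bbc3 and Phlda3, and the secreted target Gdf15. Every probe set whose only gene symbol in the platform annotation was exactly one of these names was taken. This gave 14 probe sets for 7 of the 10 genes, out of 45101 probe sets and 18193 named genes. No probe set carried Trp53, Bax or Gdf15 as its only symbol in the annotation used, so these genes have no array values here. Of the 14 probe sets, 12 had a mean signal above the minimum set for testing, 11.6 units, which is the median over all probe sets.

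All animals were BALB/c nu/nu mice, a nude strain without a functional thymus. All had been given carbon tetrachloride, a liver toxin, 23 times at 0.25 ml/kg, then 1000000 human bone marrow mesenchymal stem cells by injection into the spleen, then partial hepatectomy on day 21, with liver taken on day 8 after surgery. The groups differed in the protein expressed by the injected cells, EGFP as the control (n = 2 arrays) or OGFRL1 (n = 2 arrays). No uninjured or uninjected liver was among the arrays, so all levels are those of injured, regenerating liver, and the labels do not say whether each array stands for its own mouse. The p-values therefore measure no more than the spread between arrays of a group, moderated by that of other genes. This spread may be technical.

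p53 is a transcription factor that is stabilised by DNA damage and other stress, and Mdm2, itself a p53 target, is the ubiquitin ligase that returns it to low levels. The targets of p53 stop the cell cycle, repair DNA, adjust metabolism or start apoptosis through the mitochondria. In liver, the p53 target Cdkn1a is a known brake on hepatocyte division after partial hepatectomy.

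p53 binds a pair of near-palindromic repeats, each centred on a core of which CATG is the classic form. The reference promoters were searched for this p53 response element, because the genes were selected as its targets. The windows ran from 250 bases before to 50 bases after each RefSeq start site (GRCm38.p6). A match needed intact cores, a spacer of 0 or 1 bases and at most 3 mismatches in 20. The consensus is its own reverse complement, so each match covers both strands. Matches were found in 2 of the 10 windows of the 7 target genes and in 1.06% of all 32851 windows. The stretches below, 5′ to 3′ on the plus strand, are from an arrest target and an apoptosis target whose array values differed in pattern, with the matched element in capitals.
Cdkn1a (chr17:29090908-29090967): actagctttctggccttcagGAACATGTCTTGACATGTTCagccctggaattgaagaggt
Bbc3 (chr7:16309466-16309525): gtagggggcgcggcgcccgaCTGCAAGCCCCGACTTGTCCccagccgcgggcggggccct

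The Cdkn1a element had 1 mismatch and lay 51 to 32 bases before the upstream of the 2 start sites of that gene in the table. The Bbc3 element had 3 mismatches and lay 97 to 78 bases before the first of its 3 start sites. CATG followed after 6 bases by a further CATG, letters found in 0.712% of all windows, was present in the Cdkn1a window and not in that of Bbc3. The windows of Mdm2, Ccng1, Btg2, Plk2 and Phlda3 held no match, which says only that such letters are not in these windows. Of the listed genes without array values, Bax had a match with 2 mismatches and Trp53 a match with 3, and Gdf15 had none. Among 53 windows of the other p53 pathway genes described below, 3 held a match. They belonged to Aen, a nuclease of the apoptotic response, in a pair of overlapping windows, and to Tigar, a regulator of sugar metabolism.

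Median signals of the arrays were 11.6 to 12.5. Signals were compared as log2(signal + 3.51) with limma over 11942 genes, each gene by its brightest probe set, and fold changes on this scale understate the change of dim genes. Of all genes tested, 0.511% passed an adjusted p of 0.05 (Benjamini-Hochberg) and 15.3% had an unadjusted p under 0.05. Both OGFRL1 arrays lay above both EGFP arrays in 27.0% of genes and below both in 20.5%. The median log2 fold change over all genes was 0.04. The hepatocyte genes Alb, serum albumin, and Hnf4a, a hepatocyte transcription factor, had signals of 7041 to 16107 and of 2191 to 3602.

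In OGFRL1 livers 6 of the 7 p53 targets had a higher mean signal than in EGFP livers and 1, Bbc3, a lower one. The log2 fold change was above 0 in 55.6% of all genes. None of the 7 passed the threshold in the limma fit, against 0.511% of all genes, and the median of their log2 fold changes was 0.64 beside 0.04 for all genes. At an unadjusted p under 0.05 there were 4 of 7: Phlda3, Plk2 and Ccng1, higher, and Bbc3, lower. These were also the 4 whose groups did not overlap, 3 with OGFRL1 higher, where the share over all genes was 27.0%, and 1 with OGFRL1 lower, where it was 20.5%. The other 3 genes, Cdkn1a, Mdm2 and Btg2, had overlapping groups in which EGFP array 1 stood at the level of the OGFRL1 arrays or above it and EGFP array 2 was lowest. In a fit of all 20238 probe sets above the minimum, 0 of 12 probe sets of these genes passed, against 0.336% of all probe sets, and 4 of 12 had an unadjusted p under 0.05, against 14.0% of all probe sets.

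**Figure D1:**
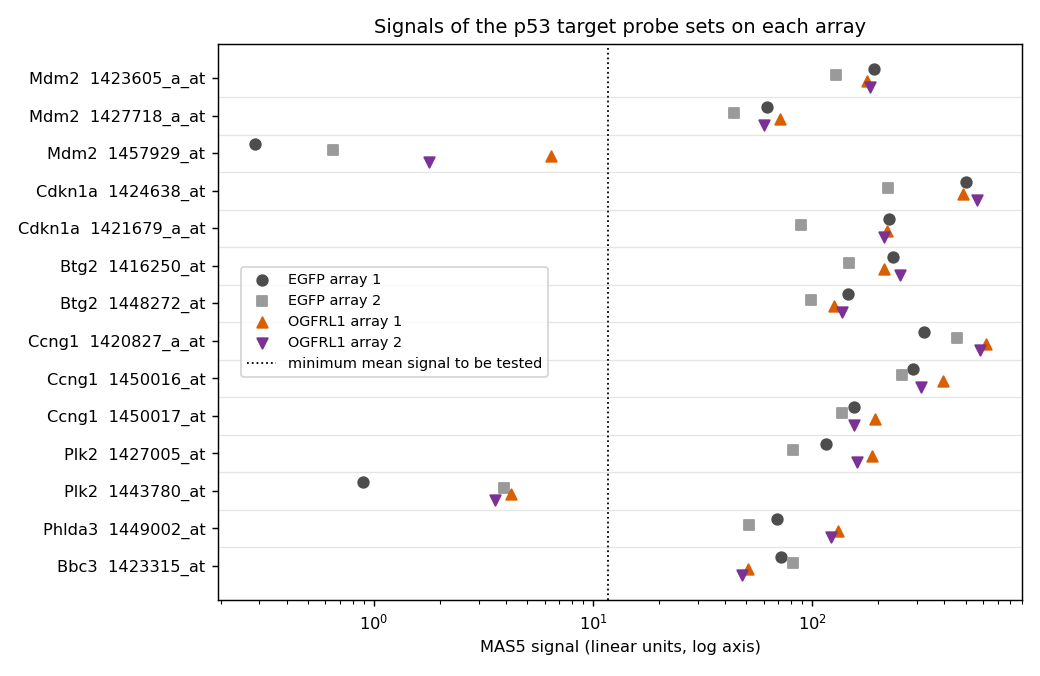
MAS5 signals (log axis) of the 14 probe sets of the 7 p53 targets on each of the 4 arrays; the dotted line marks the minimum mean signal of 11.6 for testing. EGFP array 2 is the lowest array in both tested probe sets of Mdm2 and in both of Cdkn1a and Btg2. Among tested probe sets the groups separate in Phlda3, in the bright probe set of Plk2, in all of Ccng1 and in Bbc3.

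Mdm2 stands for p53's own feedback loop. Its brightest probe set, 1423605_a_at, had signals of 191 (array 1) and 129 (array 2) in EGFP livers and of 177 (array 1) and 184 (array 2) in OGFRL1 livers. EGFP array 1 was the highest of the 4 and EGFP array 2 the lowest, so the groups overlapped. The log2 fold change was 0.20 ± 0.21 (SE), about its own error, with a limma adjusted p of 0.723. A second probe set, 1427718_a_at, read 62.4, 44.0, 70.9 and 60.3 in the same order of arrays, again with EGFP array 2 lowest and EGFP array 1 inside the OGFRL1 range. The probe set 1457929_at stayed at or under 6.45 on every array, below the minimum, and was not tested. The log2 fold change of Mdm2 was -0.085 without EGFP array 2 and 0.48 without EGFP array 1. The average of its 3 probe sets was 0.46, but this includes the dim 1457929_at at 0.87, while 1427718_a_at was at 0.30.

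Cdkn1a encodes p21, the inhibitor of cyclin-dependent kinases through which p53 stops the cell cycle. Probe set 1424638_at had signals of 500.3 and 220.3 on the EGFP arrays and of 488 and 560.4 on the OGFRL1 arrays. The EGFP arrays differed 2.27-fold from each other, and EGFP array 1 lay between the OGFRL1 arrays. The means were 360.3 ± 198 (SD, n = 2) and 524 ± 51.2. Their log2 fold change of 0.65 ± 0.35 (SE) did not pass (limma adjusted p = 0.450). The second probe set, 1421679_a_at, read 222 and 89.1 in EGFP livers and 219 and 213 in OGFRL1 livers. EGFP array 2 was again the lowest, while EGFP array 1 was here the highest of the 4. The comparison rested on the EGFP array used: the log2 fold change was 1.23 without EGFP array 1 and 0.063 without EGFP array 2. In each of these fits the lone EGFP array is assumed to vary as the OGFRL1 arrays do, so no p is read from them. With all 4 arrays kept, the limma adjusted p over the alternatives ran from 0.0590 to 0.553.

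Btg2 is an antiproliferative protein that recruits the machinery for shortening mRNA tails. Probe set 1416250_at had signals of 233 and 146 in EGFP livers and 212 and 251 in OGFRL1 livers. EGFP array 1 lay between the OGFRL1 arrays and EGFP array 2 below them. The log2 fold change was 0.31 ± 0.24 (SE, limma adjusted p = 0.600), with -0.016 without EGFP array 2 and 0.65 without EGFP array 1. Probe set 1448272_at read 145, 99.0, 125 and 136, with EGFP array 1 now the highest and a log2 fold change of 0.12 ± 0.22 in the probe set fit.

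Plk2, a polo-like kinase induced by p53 and known from centriole duplication, separated the groups. Its bright probe set 1427005_at had signals of 115 and 81.9 in EGFP livers and of 187 and 159 in OGFRL1 livers. The lowest OGFRL1 array was above the highest EGFP array, and the mean was 1.76-fold that of the EGFP group. With a log2 fold change of 0.81 ± 0.21 (SE), Plk2 did not pass over all genes (limma adjusted p = 0.154). Without EGFP array 1 the log2 fold change was 1.05, and without EGFP array 2 it was 0.57. Without OGFRL1 array 1 or 2 it was 0.69 or 0.92. With all 4 arrays kept, the limma adjusted p over the alternatives ran from 0.0190 to 0.298. The probe set 1443780_at had at most 4.23 units on any array and was not tested.

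Ccng1 encodes cyclin G1, which p53 induces strongly and which, besides its part in arrest, recruits a phosphatase to Mdm2. Probe set 1420827_a_at had signals of 323 and 455 in EGFP livers and of 618 and 580.3 in OGFRL1 livers, without overlap. Here EGFP array 1 was the lower of the control arrays, the reverse of the order in Cdkn1a, Btg2, Mdm2 and Plk2. The log2 fold change was 0.64 ± 0.19 (SE, limma adjusted p = 0.191). The other probe sets gave smaller differences in the same direction, 0.37 ± 0.17 for 1450016_at (289, 257, 394 and 314 over the 4 arrays in order) and 0.25 ± 0.18 for 1450017_at. In both of these EGFP array 1 was the higher control array. In the last the groups only just separated, with EGFP array 1 at 154 and OGFRL1 array 2 at 155. The mean over the 3 probe sets was 0.42. Without EGFP array 2 the brightest probe set gave 0.88, and without EGFP array 1 it gave 0.39. Without OGFRL1 array 1 or 2 it gave 0.59 or 0.68. With all 4 arrays kept, the limma adjusted p over the alternatives ran from 0.0220 to 0.322.

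Phlda3, a p53 target whose pleckstrin-homology domain competes with the survival kinase AKT at the membrane, showed the largest difference of the 7 genes. Signals of its single probe set, 1449002_at, were 68.8 and 51.4 in EGFP livers and 131 and 122 in OGFRL1 livers. All 4 arrays fell into their groups with a gap wider than the spread within either group, and the mean was 2.10-fold that of the EGFP group. The log2 fold change was 1.04 ± 0.20 (SE), a size that 3.0% of all genes exceeded in either direction, and it missed the threshold (limma adjusted p = 0.0849). With an array left out the log2 fold change was 1.24 (EGFP array 1), 0.85 (EGFP array 2), 0.99 (OGFRL1 array 1) or 1.09 (OGFRL1 array 2). In such fits a lone array stands for its group, so no p is read from them. With all 4 arrays kept, the limma adjusted p over the alternatives ran from 0.00375 to 0.173.

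Bbc3 encodes PUMA, a BH3-only protein that frees the pore formers of mitochondria and is a main executor of p53-dependent apoptosis. Its probe set 1423315_at had signals of 72.0 and 81.8 in EGFP livers and of 50.6 and 47.7 in OGFRL1 livers. It was the only gene of the 7 with both OGFRL1 arrays below both EGFP arrays. The means were 76.9 ± 6.89 and 49.2 ± 2.08 (SD, n = 2), and the log2 fold change was -0.61 ± 0.19 (SE, limma adjusted p = 0.210). It lay between -0.71 and -0.52 in all 14 alternatives and passed in 0 of them. Spike-in controls of the hybridisation were also lower on the OGFRL1 arrays. Their mean log2 difference was -0.43 over 4 Cre probe sets and -0.32 over 14 BioB, BioC and BioD probe sets. This concerns the arrays as a whole and not Bbc3 alone, and its part in the differences was not tested.

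**Figure D2:**
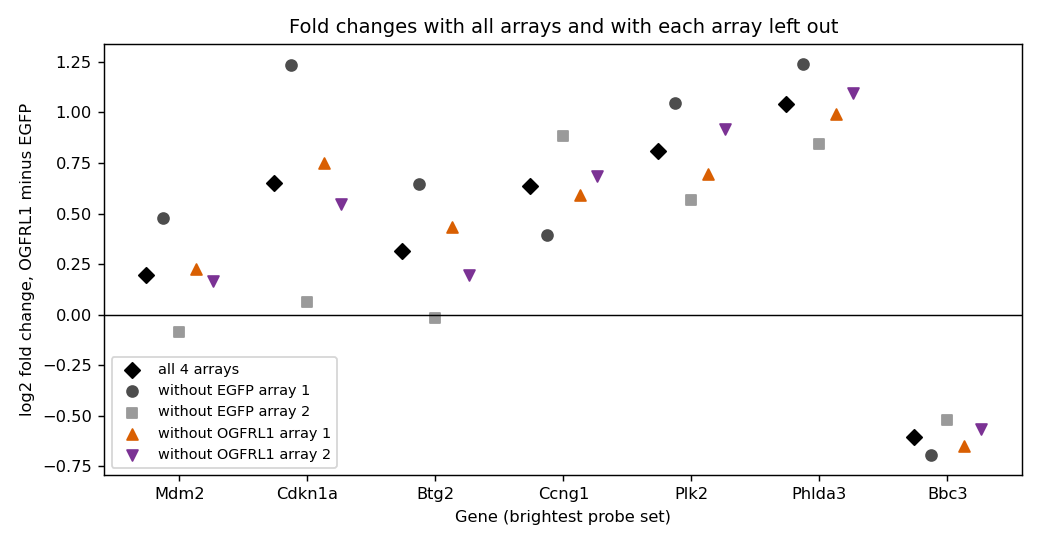
Log2 fold change (OGFRL1 minus EGFP) of the brightest probe set of each of the 7 p53 targets with all 4 arrays and with each array left out. Cdkn1a runs from 0.063 without EGFP array 2 to 1.23 without EGFP array 1, while Bbc3 stays between -0.70 and -0.52 and Phlda3 between 0.85 and 1.24.

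Arrest targets were then set beside apoptosis targets. All 4 arrest targets had a higher mean in OGFRL1 livers, with a median log2 fold change of 0.64 and 0 past the threshold. Of the 2 apoptosis targets measured, Phlda3 was higher and Bbc3 lower, so their median of 0.22 describes neither. The difference between the medians was 0.43, and 0.15 without EGFP array 2. It was 1.26 when Ccng1 and Phlda3, whose roles are mixed, were left out. Bbc3 was then the only apoptosis target, so 1.26 sets arrest targets against a single gene. As only 2 apoptosis targets of this set were matched, further textbook targets were added to each class.

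Over the wider classes, arrest targets leaned to the OGFRL1 side and apoptosis targets to neither. All 8 arrest targets tested had a higher mean in OGFRL1 livers (median log2 fold change 0.52), 5 of them without overlap, and 0 passed the threshold. Of all genes tested, 55.6% had a log2 fold change above 0. Of 11 apoptosis targets tested, 5 were higher and 6 lower (median -0.002), with 3 in each direction free of overlap and 0 past the threshold. Over all genes the shares without overlap were 27.0% higher and 20.5% lower, so the 3 higher of 11 were at the background share. At an unadjusted p under 0.05 there were 3 of 8 arrest targets, all higher, and 3 higher and 1 lower of 11 apoptosis targets, beside 15.3% of all genes. The difference between the medians was 0.52, 0.26 without EGFP array 2, 0.32 without EGFP array 1 and 0.31 without OGFRL1 array 2. With no filter, which lets in the dim arrest targets Sfn and Rprm, both lower in OGFRL1 livers, it was 0.26. It was 0.40 after quantile normalization and 0.40 under a stricter filter. The difference thus depended on single arrays and on the processing, and it was not tested.

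Among the added arrest targets, E2f7, a repressor of E2F target genes, had signals of 11.3 and 25.2 in EGFP livers and 30.4 and 49.4 in OGFRL1 livers. Its log2 fold change was 1.04 ± 0.41 (SE, limma adjusted p = 0.299) and ranged from 0.56 without EGFP array 1 to 1.51 without EGFP array 2. Zmat3, an RNA-binding zinc finger protein, had 0.40 ± 0.18. The growth arrest gene Gadd45a had 0.25 ± 0.22 and the kinase Plk3 0.16 ± 0.22, both close to their errors. Without EGFP array 2, Gadd45a was at 0.093 and Plk3 at -0.13. Plk3 had signals of 250 and 165 in EGFP livers and 215 and 240 in OGFRL1 livers, with EGFP array 1 the highest and EGFP array 2 the lowest. Sfn and Rprm stayed below the minimum signal and were not tested, and their dim readings were lower in OGFRL1 livers (-0.67 and -0.46).

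The added apoptosis targets included a further BH3-only gene, Pmaip1, which encodes NOXA. Unlike Bbc3 it had its OGFRL1 arrays above its EGFP arrays, with signals of 27.6 and 17.7 against 34.7 and 52.4 (log2 fold change 0.85 ± 0.32 SE, limma adjusted p = 0.279), and 0.57 without EGFP array 2. Apaf1, the scaffold of the apoptosome, had 47.1 and 29.9 against 62.9 and 59.6 (0.65 ± 0.26), and 0.36 without EGFP array 2. Fas, the death receptor, lay on the other side with 200.4 and 163 against 152 and 125 (-0.38 ± 0.18, adjusted p = 0.391), and was at -0.24 without EGFP array 1 and -0.25 without OGFRL1 array 2. Aen, whose promoter held a match, had 0.20 ± 0.18 and overlapping groups, with 0.010 without EGFP array 2. Its probe sets averaged 0.049, with a dim one below the minimum included. The 5 others tested lay between -0.14 and 0.26, and Tnfrsf10b was below the minimum signal.

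**Figure D3:**
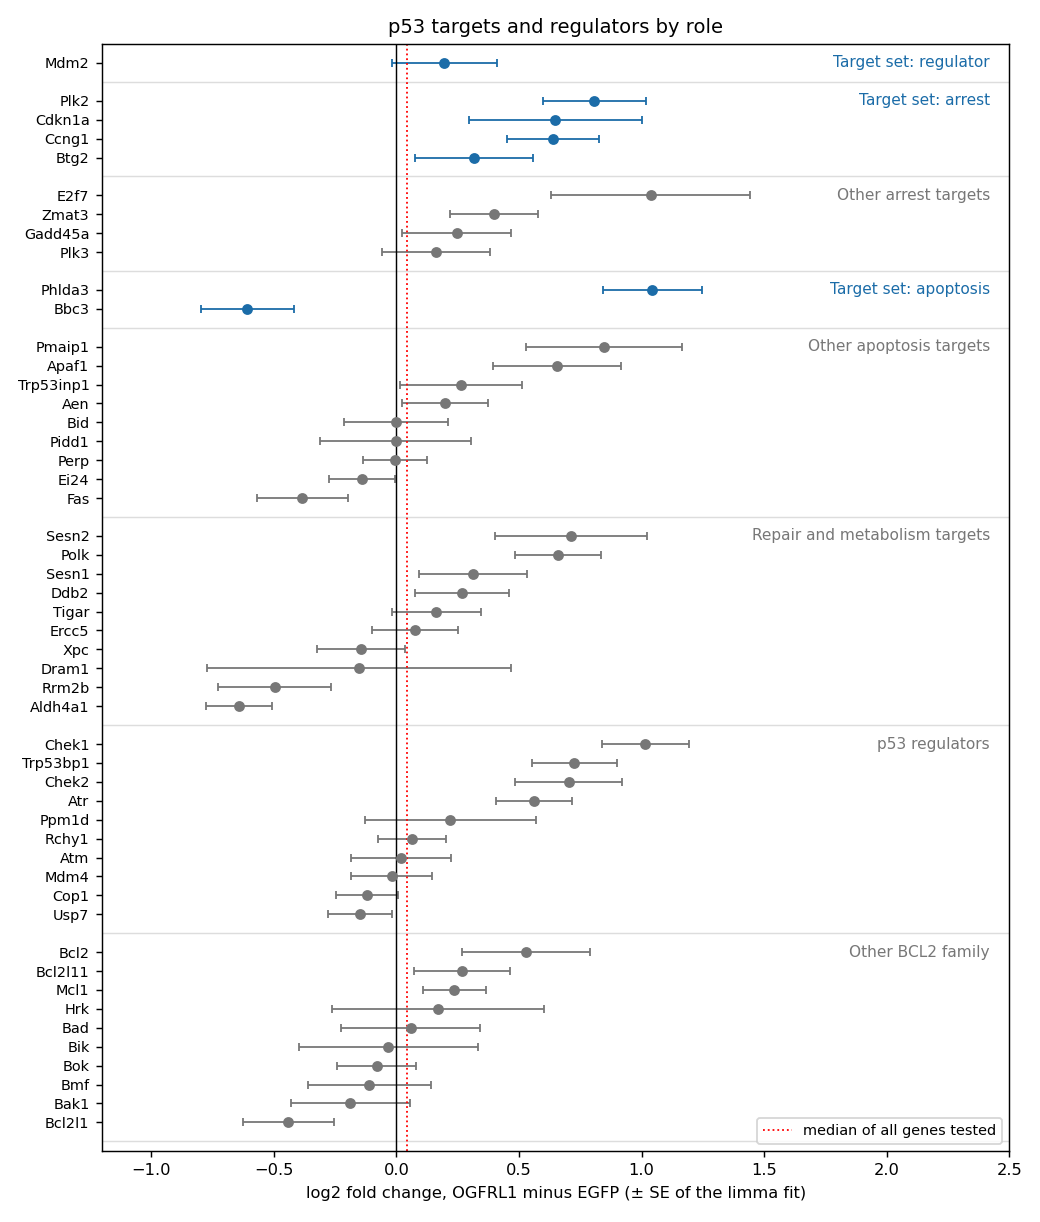
Log2 fold change (OGFRL1 minus EGFP, with the SE of the limma fit) of the p53 targets described first (blue) and of other p53 targets, p53 regulators and BCL2 family genes (grey), grouped by role; the dotted line is the median of all genes tested, 0.04. All 8 arrest targets tested lie to the right of 0, and apoptosis targets lie on both sides.

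Targets in DNA repair and metabolism were also divided, with 6 of 10 higher and 4 lower, a median of 0.12 and 0 past the threshold. Polk, a polymerase that copies across damaged bases, had signals of 55.4 and 56.7 in EGFP livers and 92.1 and 89.1 in OGFRL1 livers (log2 fold change 0.66 ± 0.18 SE, limma adjusted p = 0.159). Its probe sets averaged 0.37. Sesn2, a stress-induced inhibitor of growth signalling, had 0.71 ± 0.31, and 0.47 without EGFP array 2 and 0.46 without OGFRL1 array 1. Aldh4a1, a mitochondrial enzyme of proline breakdown, lay in the other direction with 657 and 684 against 407 and 450.2. Its log2 fold change was -0.64 ± 0.13 (limma adjusted p = 0.100). With an array left out it was -0.67 (EGFP array 1), -0.61 (EGFP array 2), -0.57 (OGFRL1 array 1) or -0.71 (OGFRL1 array 2). With all 4 arrays kept, the adjusted p of Aldh4a1 over the alternatives ran from 0.0164 to 0.228. Rrm2b, the p53-induced subunit of ribonucleotide reductase, had -0.50 ± 0.23, but its probe sets, with dim ones below the minimum included, averaged -0.033. Gls2 and Fdxr had no probe set with that single symbol.

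Of the genes that act on p53, 4 with roles in the DNA damage checkpoint had higher signals in OGFRL1 livers without overlap. By their brightest probe sets 2, Cop1 and Usp7, had lower ones without overlap. Over all genes the shares were 27.0% higher and 20.5% lower. The direction of Usp7 depended on the probe set. The brightest was at -0.15, and among the dimmer ones groups also separated both ways, higher at 0.33 and 0.65 and lower at -0.82. The kinase gene Chek1 had 61.8 and 62.4 against 119 and 140 (log2 fold change 1.02 ± 0.18 SE, limma adjusted p = 0.0684). Over all alternatives the log2 fold change of Chek1 ran from 0.63 to 1.13. The p53-binding protein gene Trp53bp1 had 0.73 ± 0.17, the kinase gene Chek2 0.70 ± 0.22 and the kinase gene Atr 0.56 ± 0.15. Averaged over all probe sets of a gene, dim ones included, Chek1 had 0.63, Trp53bp1 0.36 and Atr 0.26. The other 6 tested were Atm, also a damage kinase gene, Mdm4, Ppm1d, Cop1, Rchy1 and Usp7 and lay between -0.15 and 0.22. In all, 7 of 10 were higher and 3 lower, the median was 0.14, and 0 passed the threshold. These 4 were set apart after the values were seen. Cdkn2a and the p53 relatives Trp63 and Trp73 were below the minimum signal.

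The BCL2 family, on which PUMA and NOXA act, showed no common direction. Of the 10 other members tested 5 were higher and 5 lower, with a median log2 fold change of 0.01 and 0 past the threshold. Bcl2l1, which encodes the survival protein BCL-XL, had signals of 139 and 145 in EGFP livers and 119 and 90.7 in OGFRL1 livers (-0.44 ± 0.19 SE, limma adjusted p = 0.334), but its probe sets averaged 0.16, and it was at -0.25 without OGFRL1 array 2. The survival genes Bcl2 and Mcl1 had 0.53 ± 0.26 and 0.24 ± 0.13, and Bcl2l11, which encodes the BH3-only protein BIM, 0.27 ± 0.20. The probe sets of Bcl2, most of them below the minimum signal, averaged 0.17, and Bcl2l11 was at 0.13 without OGFRL1 array 2.

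Several marker lists differed between the same arrays. Markers of cycling cells were higher in OGFRL1 livers for 8 of 8 tested, 3 past the threshold, with a median log2 fold change of 1.61. Their summed signal was 1785 to 2451 in EGFP livers and 4975 to 6052 in OGFRL1 livers. Markers of stellate cells and myofibroblasts were higher for 7 of 9 (median 0.86, 0 past the threshold, summed signal 3817 to 4627 and 5050 to 6923). Markers of hepatocytes were lower for 9 of 9 (median -0.51, 0 past the threshold, 68415 to 90804 and 52103 to 56878). Phlda3, Plk2 and Ccng1 were higher in the same livers, as were 27.0% of all genes without overlap. With 2 arrays in a group, any such gene shares its direction with these lists, so no link to a cell type is read from it. In bulk tissue fewer cells of a type and less RNA per cell cannot be told apart, and the part of these cells in the differences was not tested.

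The low values of EGFP array 2 in Cdkn1a, Btg2, Mdm2 and Plk3 had counterparts in several marker lists. EGFP array 2 was below EGFP array 1 in 8 of 8 cycling markers, 9 of 9 hepatocyte markers and 8 of 8 macrophage markers. It was the lowest of the 4 arrays in 8, 0 and 6 of them. Other lists leaned the other way, with EGFP array 1 the higher in 1 of 4 cholangiocyte markers, 2 of 10 p53 regulators and 3 of 10 repair and metabolism targets. The share over all genes was not computed. The summed macrophage signal was 12637 and 5310 in EGFP livers, and 6681 and 10968 in OGFRL1 livers. The 4 neutrophil markers tested were likewise lower on EGFP array 2 than on EGFP array 1, with sums of 651 and 227 against 293 and 432. OGFRL1 array 1, at 488 for Cdkn1a, had macrophage markers close to those of EGFP array 2, at 220.3 for Cdkn1a. These arrays belong to different groups, so nothing about a cause is read from the pair. Between the groups macrophage markers had a median of -0.002 with 4 of 8 higher, and neutrophil markers -0.13 with 1 of 4 higher. The part of these cells was not tested. Cholangiocyte markers had a median of 0.07 with 2 of 4 higher (summed signal 108 in each EGFP array and 102 to 109 in OGFRL1 livers), and endothelial markers -0.24 with 1 of 6 higher (1452 to 1577 and 1324 to 1405). The 2 lymphocyte markers tested, Nkg7 and Cd8a, were dim and lower (37.4 to 38.7 and 14.0 to 17.7 in sum), with Cd79a, Ms4a1 and Cd3e below the minimum signal. Alas2, the only erythroid marker tested, was at 247 and 375 against 124 and 96.0. Outside the cycling list 0 markers passed the threshold.

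**Figure D4:**
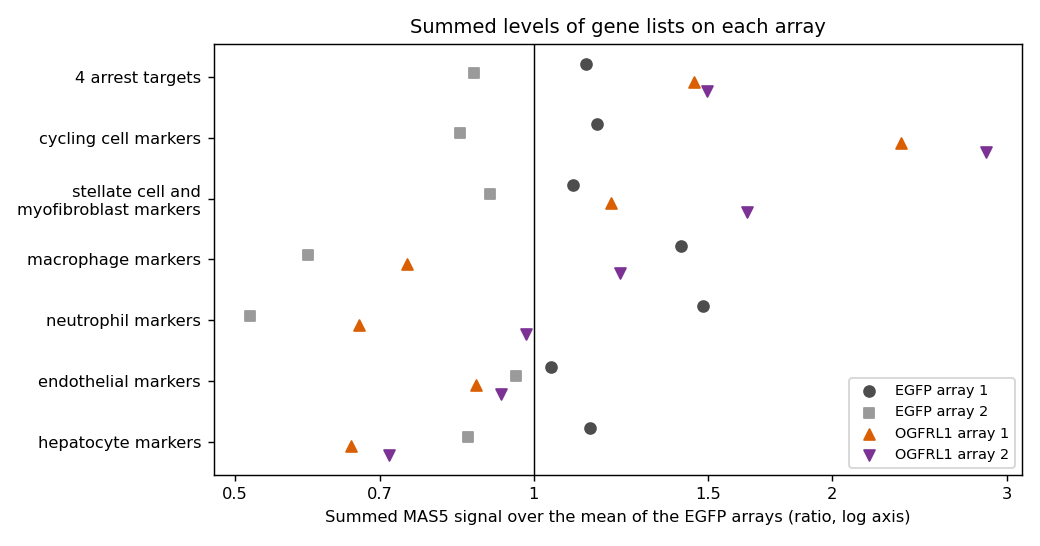
Summed MAS5 signal of the 4 arrest targets and of marker lists on each array, as a ratio to the mean of the EGFP arrays (log axis). The arrest targets sum to 1172 and 903 in EGFP livers and to 1506 and 1551 in OGFRL1 livers. The sums of the cycling, stellate cell, macrophage and neutrophil lists are also lowest on EGFP array 2. For the stellate cell list this order rests on Dcn (2450 and 1579 in EGFP livers), and EGFP array 2 is lowest in 4 of 9 markers.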

How the data were processed

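Biotin-labelled cRNA from 100 ng of total RNA was hybridised to 4 single-colour Affymetrix arrays, per the labels' protocols. The authors deposited 1 linear MAS5 signal intensity for each probe set, per the submitters' processing notes, and the MAS5 version and detection calls are not given in the sources used here. With 2% of probe sets left out at each end, array means were 100.001, so each array had been scaled as a whole. Names came from the platform annotation. Signals were transformed as log2(signal + 3.51), the pseudocount being the 25th percentile, and genes whose brightest probe set had a mean of at least 11.6 were fitted with limma 3.58.1 in R 4.3.3 (lmFit, eBayes with an intensity trend, 2-sided, Benjamini-Hochberg over all genes). The fit had 2 residual and 4.48 prior degrees of freedom. It was also run on all probe sets and was tested on simulated data. Precision is limited by having 2 arrays in a group.

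The target genes, the other gene lists and the marker lists were chosen with earlier results of these data known, so no p-value is given over a list. Named genes are all target genes, Alb and Hnf4a, and up to 4 genes of each other p53 list in order of absolute moderated t. Other genes named were chosen after their values were seen. Promoters are RefSeq sequences of GRCm38.p6, with windows for all 7 target genes. Figures were drawn with matplotlib 3.10.9, and tables were made with pandas 2.3.3 and numpy 2.4.6 under Python 3.11.15.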

Additional observations from a re-analysis of the deposited data

How the results depend on the processing

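With an array left out, a lone array stands for its group, so passes in such fits are not read. The number of p53 targets past the threshold was 0 in every alternative that kept all 4 arrays, apart from the crossed block below. Their median log2 fold change of 0.64 ran from 0.063 (without EGFP array 2) to 0.65 with an array left out, the difference between arrest and apoptosis targets of 0.43 from 0.15 to 0.57, and that of the wider classes of 0.52 from 0.26 to 0.56. The difference was 1.26 with Ccng1 and Phlda3 left out, where Bbc3 was the only apoptosis target. The difference of the wider classes was 0.40 after quantile normalization, 0.26 with no filter and 0.40 under the stricter filter. With an array left out Mdm2 ran from -0.085 to 0.48, Btg2 from -0.016 to 0.65 and Plk3 from -0.13 to 0.46, each below 0 without EGFP array 2. The sign also turned for Bcl2l1 (0.16) as the mean over its probe sets, which includes ones below the minimum signal. Of all genes limma called 61, and 4 after quantile normalization, 94 with 4 times the pseudocount, 0 with no filter (2179 at an unadjusted p under 0.05), 21 under the stricter filter, 13 as the mean over probe sets, 0 without an intensity trend (1654 unadjusted), and 0 to 873 with an array left out. Of all probe sets it called 68, and 12 after quantile normalization, 104 with scaling to equal medians, 116 with 4 times the pseudocount, 0 with no filter (3673 unadjusted), 0 without an intensity trend (2537 unadjusted), and 0 to 1119 with an array left out. With the replicate number as a block the counts were 59 genes, 60 probe sets and 0 p53 targets. Deviations of same-numbered arrays correlated at -0.28 over 11942 genes, and with crossed numbers as a block, added after the data were seen, the counts were 934 genes, 1274 probe sets and 3 p53 targets. At most 2 mismatches left 1 promoter match of 2 in the windows of the target genes with array values. The cause of these changes was not tested.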

Other observations

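Dram1, a p53 target of the autophagy response that was not chosen by the rule for named genes but after its values were seen, differed 4.37-fold between the EGFP arrays. EGFP livers had signals of 128 and 29.4 and OGFRL1 livers of 42.5 and 72.9. The summed macrophage markers (12637, 5310, 6681 and 10968) and neutrophil markers (651, 227, 293 and 432) put the arrays in the same order. The log2 fold change between the groups was -0.15 ± 0.62 (SE, limma adjusted p = 0.940), and the relation to macrophage or neutrophil content was not tested.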
